A study of Mus musculus with 35 samples.

Results

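The genes described here run the cell division cycle and copy the genome, and 38 of them were listed by name: helicase and replication fork genes, enzymes that supply deoxynucleotides, cyclins and their kinases, genes of mitosis, and the inhibitors Cdkn1a and Cdkn1b with the growth regulator Myc. Members were taken by gene symbol, and a member counted as expressed when the mean of at least 1 of its probesets exceeded log2 5, which is a signal of 32, in at least 1 group. Of the 38 genes, 37 had a probeset of their own and 32 were expressed, out of 8626 expressed genes in all. These 32 genes had 60 expressed probesets out of 87. Cdc45, Gins1, Gins2, Tyms and Ccne1 stayed below the limit in every group, with highest group means of 3.96, 4.82, 4.60, 3.11 and 4.10 on the log2 scale, and Ccnb1 had no probeset of its own. The choice of members did not use the measured values, but it was made with earlier results of these data known.

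In the small intestine, cells divide in the crypts, the pockets between the villi, and stop dividing as they move up onto the villus. A dividing cell first loads the Mcm2 to Mcm7 helicase onto its origins of replication with the help of Cdc6 and Cdt1, then raises its supply of deoxynucleotides and copies its DNA, and finally separates the chromosomes under the control of cyclin A, cyclin B and Cdk1 and the kinases of mitosis. Many of these genes are transcribed only in cycling cells, through E2F factors at the entry into S phase and through the MuvB complex before mitosis, so they tend to be measured together. In whole intestine, fewer cells of a type and less RNA per cell cannot be told apart.

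RNA was measured on 35 Affymetrix mouse arrays, each from the full-length small intestine of 1 male mouse of 4 months. Wild-type mice were of the strain 129S1/SvImJ and PPARα-null mice, a constitutive knockout of the nuclear receptor, of 129S4/SvJae, so that a substrain difference cannot be told apart from the genotype. All mice had eaten a modified AIN76A diet with olive oil for 2 weeks, were fasted for 4 h, received 400 μl by gavage and were killed after 6 h. WY14643, a synthetic PPARα agonist, was given as a 0.1% suspension in 0.5% carboxymethyl cellulose to 4 wild-type and 4 PPARα-null mice. The fatty acids were given as oils, namely triacylglycerols of EPA (5 and 5 mice), DHA (5 and 4) or oleic acid, OA (4 and 4). WY14643 and the fatty acids thus differed in their vehicle and in the lipid that reached the gut, and these cannot be told apart from the agonist. Untreated mice were not analysed here.

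The deposited values were log2 signals made with GCRMA, and array medians lay between 2.83 and 2.88. The number of arrays limits the precision. On Cyp4a10, a PPARα target, and on Ppara itself, 3 arrays went against their genotype label. Wild-type EPA replicate 5 read 1.81 for Cyp4a10 and 4.82 for Ppara, PPARα-null EPA replicate 5 read 9.91 and 7.83, and PPARα-null OA replicate 1 read 10.61 and 7.27. All were kept under their labels, and the counts of cell cycle genes after WY14643 and of the genotype comparisons are also given without them.

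Between WY14643 and the fatty acids, 16 to 24 of the 32 cell cycle genes were called in each comparison, nearly all of them lower after WY14643. In wild-type mice 20 of the 32 genes were lower after WY14643 than after EPA, 21 lower than after DHA and 23 lower than after OA, and 1 gene was higher in each case. In PPARα-null mice 20, 15 and 19 genes were lower and 1, 1 and 2 were higher. To be called, a gene needed an expressed probeset with a limma p under 0.05 after Benjamini-Hochberg adjustment over all 15384 expressed probesets. The 3 comparisons within a genotype share the WY14643 arrays and are not independent of each other. Among all expressed genes, 23.1, 20.8 and 17.7% were lower in wild-type mice after WY14643 than after EPA, DHA and OA, and 17, 9.04 and 13.3% in PPARα-null mice, against 62.5, 65.6 and 71.9% and 62.5, 46.9 and 59.4% of the cell cycle genes. Higher after WY14643 were 22.2, 19.7 and 16.2% of all genes in wild-type and 20.9, 10.9 and 18.3% in PPARα-null mice.

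The shift was moderate in size. Each gene was measured on its expressed probeset of highest mean, and the median difference over the 32 genes (log2) was -0.36, -0.40 and -0.48 for wild-type mice (WY14643 minus EPA, DHA and OA) and -0.31, -0.29 and -0.35 in PPARα-null mice. The median over all expressed genes lay between -0.01 and 0.04 in these comparisons. In every one of the 6, at least 27 of the 32 differences were below 0. Without the 3 arrays that went against their label, the counts of lower genes were 20, 22 and 24 in wild-type mice and 16, 15 and 18 in PPARα-null mice. The count in PPARα-null mice against DHA rested on single arrays. All called genes together numbered 16 there, but 9, 7 and 6 when DHA replicate 1, 2 or 4 was left out and 10 and 8 without WY14643 replicate 2 or 3, and 3 when only those 2 groups were fitted.

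**Figure D1:**
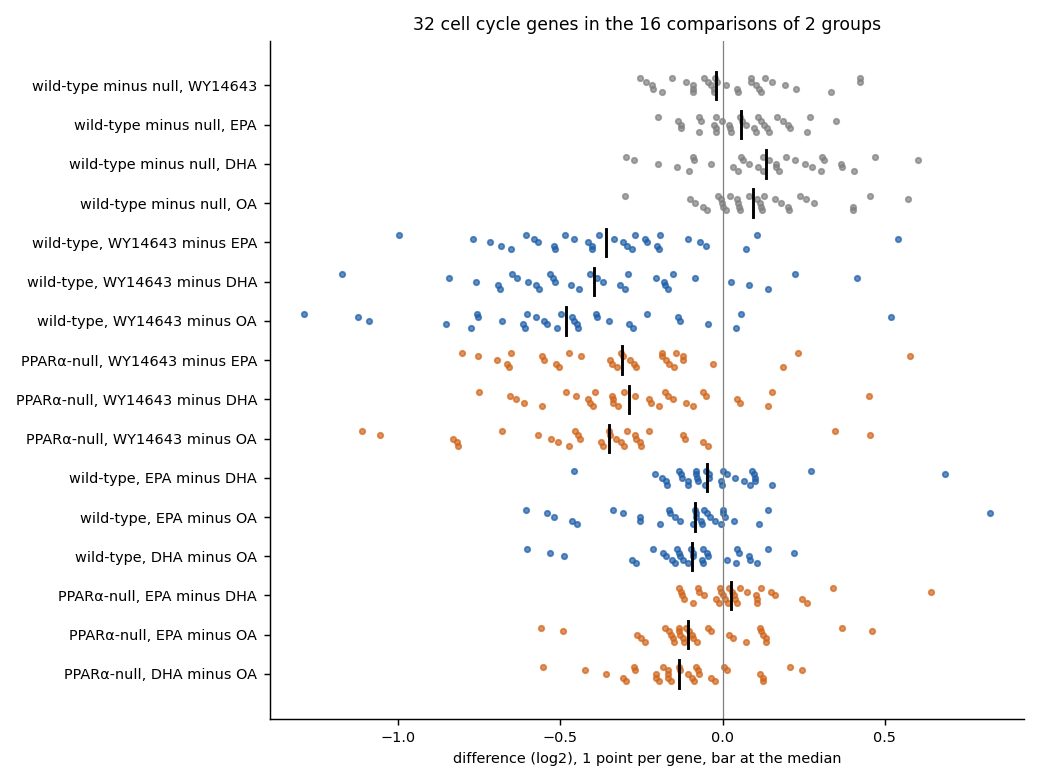
Differences of the 32 expressed cell cycle genes (log2, 1 point per gene on its probeset of highest mean, black bar at the median) in the 16 comparisons of 2 groups, with the genotype comparisons in grey, wild-type mice in blue and PPARα-null mice in orange. The medians lie between -0.29 and -0.48 in the 6 comparisons of WY14643 with a fatty acid and between -0.13 and 0.13 in the other 10.

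The lists of lower genes in the 2 genotypes can be compared, since they share no mouse. Against EPA, 19 of the genes were lower in both genotypes, 95% of either list. Against DHA, 14 were shared, which is 66.7% of the wild-type list and 93.3% of the PPARα-null list, and against OA 19 were shared, 82.6% and 100%. Over all expressed genes the shared shares were 61.6 and 83.7% for EPA, 35.9 and 82.6% for DHA and 54.3 and 72.5% for OA.

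**Figure D2:**
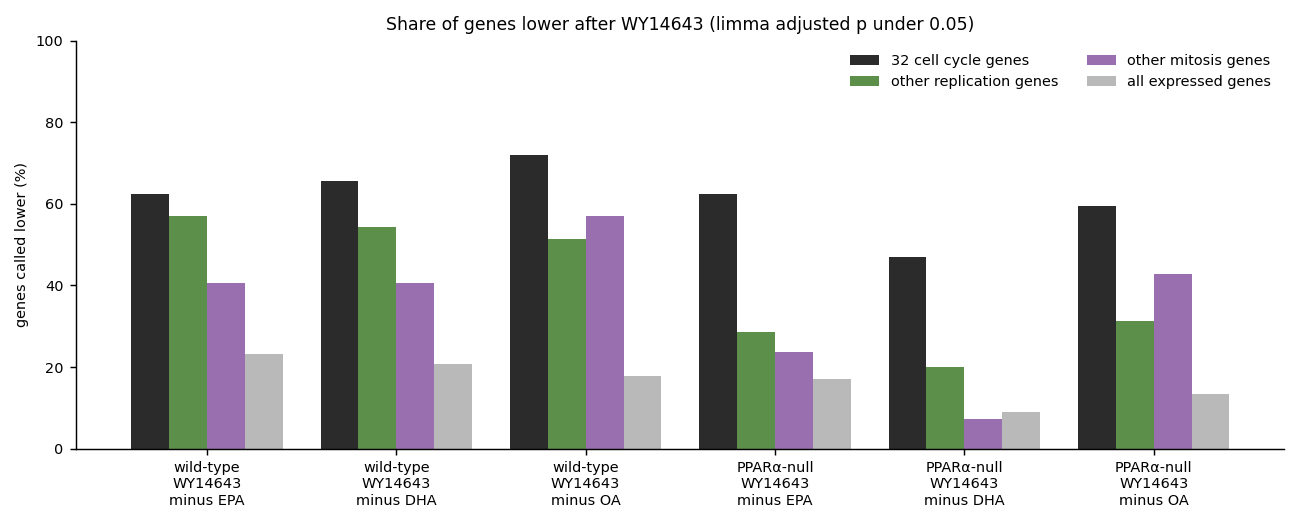
Percent of genes called lower after WY14643 than after each fatty acid (limma, adjusted p under 0.05), for the 32 cell cycle genes, the other replication genes (35 expressed), the other mitosis genes (42 expressed) and all 8626 expressed genes. The cell cycle genes reach 46.9 to 71.9%, all genes 9.04 to 23.1%.

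The array medians of the cell cycle genes show how even the shift was. For each array the deviation of every gene from its mean over all arrays was taken, and the median over the 32 genes is given. In wild-type mice after WY14643 these medians were -0.46, -0.27 and -0.31 in replicates 1 to 3 but 0.01 in replicate 4, which stood apart. In PPARα-null mice after WY14643 they were -0.23, -0.40, -0.35 and -0.10. The fatty acid arrays lay between -0.19 and 0.30, with the lowest values in PPARα-null mice after DHA (-0.19 to 0.18). One WY14643 array of each genotype therefore overlapped with the fatty acid arrays.

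The helicase and fork genes had 9 expressed members, of which 7, 8 and 7 were lower in wild-type mice after WY14643 than after EPA, DHA and OA, and 6, 5 and 6 in PPARα-null mice. Mcm2, a subunit of the helicase, had the largest fall of these genes against OA in wild-type mice. In wild-type mice it read 6.39, 6.79, 6.32 and 7.26 after WY14643 and 7.84, 7.999, 8.06 and 8.04 after OA. After EPA it read 7.24, 7.23, 7.55, 7.44 and 7.43, and after DHA 7.62, 7.26, 7.24, 7.29 and 7.49. All 4 WY14643 values lay below all OA values, by 1.29 on the log2 scale on average (SE 0.16, 2.44-fold, limma adjusted p = 9.74e-07), while replicate 4 reached into the range of EPA and DHA. In PPARα-null mice Mcm2 read 6.49, 6.59, 6.70 and 6.54 after WY14643 against 7.28, 7.30, 7.66 and 7.40 after OA, a fall of 0.83 (SE 0.16, limma adjusted p = 0.000401). There the WY14643 values lay below every fatty acid value.

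Mcm3, the next subunit, separated the groups fully. It read 7.40, 7.67, 7.43 and 7.57 in wild-type mice after WY14643 and 8.04, 8.17, 8.08 and 8.18 after OA. The fall was 0.60 (SE 0.11, limma adjusted p = 9.89e-05), and against EPA and DHA it was 0.61 and 0.65. In PPARα-null mice Mcm3 read 7.09, 7.41, 7.48 and 7.56 after WY14643 and 7.83, 7.98, 7.79 and 8.05 after OA, a fall of 0.53 (SE 0.11, limma adjusted p = 0.00061). Mcm5 read 8.65, 8.76, 8.92 and 8.93 against 9.24, 9.24, 9.43 and 9.21 in wild-type mice (a fall of 0.46, SE 0.10, limma adjusted p = 0.00083). In PPARα-null mice it read 8.82, 8.71, 8.94 and 9.17 against 9.09, 9.35, 9.25 and 9.44, and here the groups overlapped (a fall of 0.37, SE 0.10, limma adjusted p = 0.0065). The other expressed Mcm5 probeset read 6.24, 6.47, 6.55 and 6.79 against 7.28, 7.17, 6.95 and 7.26 there, without overlap. Against DHA in PPARα-null mice it fell by 0.59 (limma adjusted p = 0.00344), where the main probeset was at -0.17 and was not called.

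The remaining helicase subunits moved less evenly. Mcm6 fell by 0.35 against OA in both genotypes on its main probeset (limma adjusted p = 0.00204 and 0.00263). Its other probeset fell by 0.44 in wild-type mice (adjusted p = 0.0149) but was at -0.02 in PPARα-null mice (adjusted p = 0.914) and was called in no PPARα-null comparison. Mcm4 fell by 0.54 in wild-type mice (adjusted p = 0.0137), a call that was lost without wild-type WY14643 replicate 3 or OA replicate 2 or 3 (adjusted p = 0.0702, 0.0548 and 0.0526). On its main probeset the difference of Mcm4 in PPARα-null mice was -0.37 (adjusted p = 0.0967), while its other probeset fell by 0.64 (adjusted p = 0.000211). Mcm7 had differences of -0.28 and -0.27 against OA on its main probeset, and its other 3 probesets were called too, at -0.33 to -0.44 in wild-type and -0.26 to -0.45 in PPARα-null mice. The call of the main probeset alone was tested by leaving out arrays. In wild-type mice it was lost without any of 4 of the 8 arrays (OA replicates 2, 3 and 4, WY14643 replicate 1, adjusted p up to 0.19), and in PPARα-null mice without any of 6 of the 8 (OA replicates 1, 2 and 3, WY14643 replicates 1, 2 and 3, adjusted p up to 0.107).

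The loading factors Cdc6 and Cdt1 went different ways. Cdc6 was at 4.45 (SD 0.28, n = 4) in wild-type mice after WY14643 and at 5.16 to 5.29 after the fatty acids. The fall against OA was 0.76 (SE 0.20, limma adjusted p = 0.00439), but the WY14643 level was below log2 5, so its size is uncertain. In PPARα-null mice Cdc6 was at 4.47 (SD 0.18, n = 4) after WY14643 and the difference from OA was -0.33 (adjusted p = 0.227). Cdt1 was higher after WY14643 than after OA in PPARα-null mice, by 0.35 (SE 0.10, adjusted p = 0.00939), although its other probeset did not pass the test there (0.15, adjusted p = 0.32). In wild-type mice the difference of Cdt1 from OA was 0.04 (adjusted p = 0.796).

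Pcna, the sliding clamp of the DNA polymerases, varied little between arrays. It read 11.42, 11.44, 11.43 and 11.49 in wild-type mice after WY14643, against 11.67, 11.56, 11.86, 11.76 and 11.75 after EPA and 11.68, 11.57, 11.49 and 11.58 after OA. The fall against EPA was 0.28 (SE 0.07, limma adjusted p = 0.0013), and the WY14643 and EPA values did not overlap. Against DHA the fall was 0.18 (adjusted p = 0.0335), a call that was lost without any of 6 single arrays (DHA replicates 2, 3 and 5 and WY14643 replicates 1, 2 and 3, adjusted p up to 0.0763). Against OA the difference was -0.14 with a 95% interval from -0.28 to 0.00 (adjusted p = 0.143). In PPARα-null mice Pcna read 11.64, 11.47, 11.51 and 11.51 after WY14643 and 11.46, 11.44, 11.72 and 11.70 after OA, and its differences from EPA, DHA and OA were -0.16, -0.06 and -0.05 (adjusted p = 0.0562, 0.604 and 0.666).

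**Figure D3:**
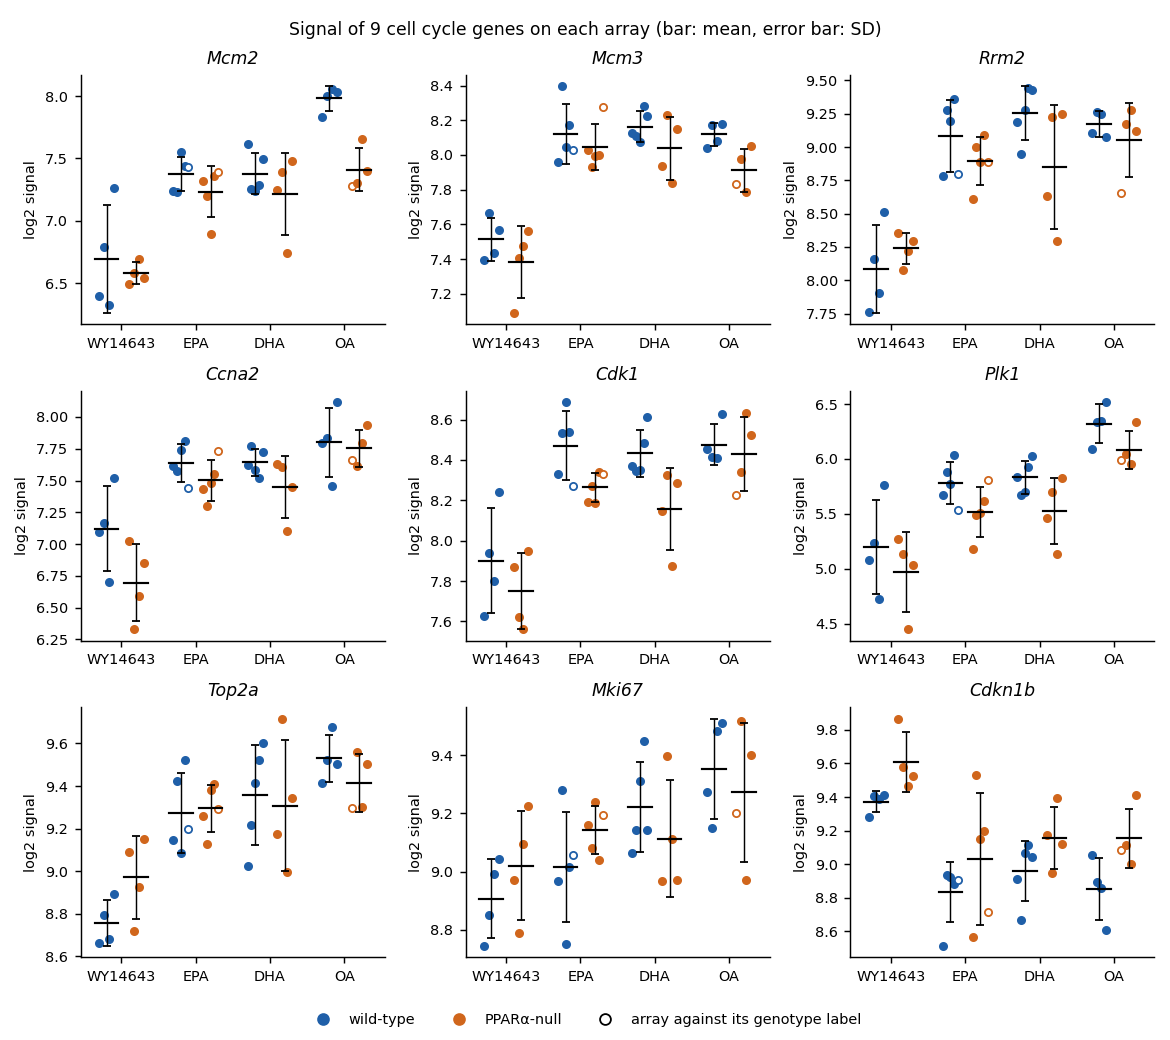
Log2 signal of 9 cell cycle genes on each array by agonist, wild-type in blue and PPARα-null in orange, with the mean (bar) and SD (error bar) of each group of 4 or 5 mice; open circles are the 3 arrays that went against their genotype label. Mcm2, Mcm3, Rrm2, Ccna2, Cdk1, Plk1, Top2a and Mki67 have their lowest group means after WY14643 in both genotypes, and Cdkn1b its highest.

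Of the nucleotide supply genes, 4 were expressed, and 2, 2 and 3 of them were lower after WY14643 than after EPA, DHA and OA in wild-type mice and 2, 3 and 3 in PPARα-null mice. Ribonucleotide reductase, which makes deoxynucleotides from ribonucleotides, is built from Rrm1 and Rrm2. Rrm2, the subunit whose level follows S phase, read 7.76, 8.16, 7.91 and 8.51 in wild-type mice after WY14643 and 9.11, 9.26, 9.25 and 9.08 after OA. After EPA it read 8.78, 9.28, 9.20, 9.36 and 8.80, and after DHA 9.19, 8.95, 9.28, 9.44 and 9.43. No WY14643 value reached a fatty acid value, and the falls against EPA, DHA and OA were 1.00, 1.17 and 1.09 (SE 0.17 to 0.18, limma adjusted p = 3.56e-05, 9.56e-06 and 4.83e-05), or 2.00-, 2.25- and 2.13-fold.

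In PPARα-null mice Rrm2 read 8.36, 8.08, 8.22 and 8.30 after WY14643 and 8.65, 9.17, 9.28 and 9.12 after OA, a fall of 0.82 (SE 0.18, limma adjusted p = 0.00141). Its main probeset can match several transcripts, as the ending of its name says. The same holds for the main probesets of Mcm3, Mcm4, Mcm5, Mcm7, Ccnd2, Cdk4, Cdc20 and Aurkb. Rrm1 read 7.39, 7.41, 7.41 and 7.69 against 7.97, 8.12, 8.19 and 8.08 after OA in wild-type mice (a fall of 0.61, SE 0.11, limma adjusted p = 0.000176). Rrm1 in PPARα-null mice read 7.72, 7.16, 7.47 and 7.63 against 7.94, 8.16, 8.07 and 8.09 (a fall of 0.57, SE 0.11, limma adjusted p = 0.000624). On the main probesets the WY14643 and OA values of both subunits were apart in both genotypes. The other expressed Rrm1 probeset overlapped in PPARα-null mice, at 7.40, 7.07, 6.83 and 6.95 after WY14643 and 7.79, 7.27, 7.87 and 7.86 after OA. It was not called against EPA or DHA there (-0.42 and -0.40, limma adjusted p = 0.0704 and 0.146), where the main probeset was lower.

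Dut, which keeps uracil out of DNA by cleaving dUTP, fell by 0.45 and 0.44 against OA (limma adjusted p = 0.018 and 0.0232). These calls were lost without wild-type OA replicate 2 or WY14643 replicate 1 (adjusted p = 0.0842 and 0.114) and without PPARα-null OA replicate 4 or WY14643 replicate 1 or 3 (0.123, 0.0744 and 0.0711). Tk1, the thymidine salvage kinase, was not called between WY14643 and any fatty acid. Its difference from OA was -0.39 in wild-type mice (95% interval -0.71 to -0.08, adjusted p = 0.0556) and -0.30 in PPARα-null mice (-0.62 to 0.01, adjusted p = 0.146).

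Of the 7 expressed cyclins and kinases, 5, 4 and 4 were lower after WY14643 than after EPA, DHA and OA in wild-type mice and 5, 4 and 4 in PPARα-null mice. Ccna2, the cyclin of S phase and the entry into mitosis, read 7.10, 7.16, 6.70 and 7.52 after WY14643 and 7.79, 7.83, 7.46 and 8.12 after OA in wild-type mice. Replicate 4 after WY14643 lay above the lowest OA value, and the fall was 0.68 (SE 0.15, limma adjusted p = 0.00134). In PPARα-null mice the values were 7.03, 6.33, 6.59 and 6.85 against 7.66, 7.62, 7.80 and 7.94, with no overlap and a fall of 1.06 (SE 0.15, 2.08-fold, limma adjusted p = 3.99e-05). The second Ccna2 probeset gave a difference of -0.39 in the latter comparison (adjusted p = 0.0993). Against EPA and DHA in PPARα-null mice it was at -0.03 and -0.12 (adjusted p = 0.921 and 0.679), where the main probeset fell by 0.80 and 0.75. Against EPA in wild-type mice it was at -0.28 (adjusted p = 0.194), where the main probeset fell by 0.52.

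Cdk1, the kinase that drives mitosis, read 7.63, 7.94, 7.80 and 8.24 after WY14643 and 8.45, 8.42, 8.41 and 8.63 after OA in wild-type mice (a fall of 0.57, SE 0.12, limma adjusted p = 0.000602). The PPARα-null values were 7.87, 7.62, 7.56 and 7.95 against 8.23, 8.34, 8.63 and 8.52 (a fall of 0.68, SE 0.12, limma adjusted p = 0.00019). In neither genotype did the WY14643 and OA values overlap. Ccnb2, a cyclin B, and Cdk2, which acts with cyclins E and A, were called in none of the 6 comparisons. For Ccnb2 the differences ranged from -0.12 to 0.22, and for Cdk2 from -0.30 to 0.08.

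The G1 genes Ccnd1, Ccnd2 and Cdk4 gave different answers on different probesets. The main probeset of Ccnd1 had differences from -0.14 to -0.29 and was not called, whereas another of its probesets fell by 0.86 and 0.87 against EPA and DHA in wild-type mice and by 1.10 and 1.11 in PPARα-null mice (limma adjusted p = 0.0346, 0.036, 0.0101 and 0.0266). Ccnd2 had 7 expressed probesets. On its main probeset it fell by 0.50 against OA in wild-type mice (adjusted p = 0.00494), and the 2 with the largest changes fell by 1.24 and 1.11 against EPA in PPARα-null mice (adjusted p = 0.00114 and 0.00113), where the main probeset was at -0.31 (adjusted p = 0.0549). Cdk4 was within 0.27 of each fatty acid on its main probeset and was called there only against EPA in wild-type mice. That call was lost without EPA replicate 3 or WY14643 replicate 3 (adjusted p = 0.0612 and 0.0931). Its other 2 probesets fell against OA by 0.23 and 0.33 in wild-type (adjusted p = 0.0433 and 0.043) and by 0.35 and 0.39 in PPARα-null mice (0.00332 and 0.0184). One of them also fell by 0.22 against EPA in PPARα-null mice (adjusted p = 0.0366).

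**Figure D4:**
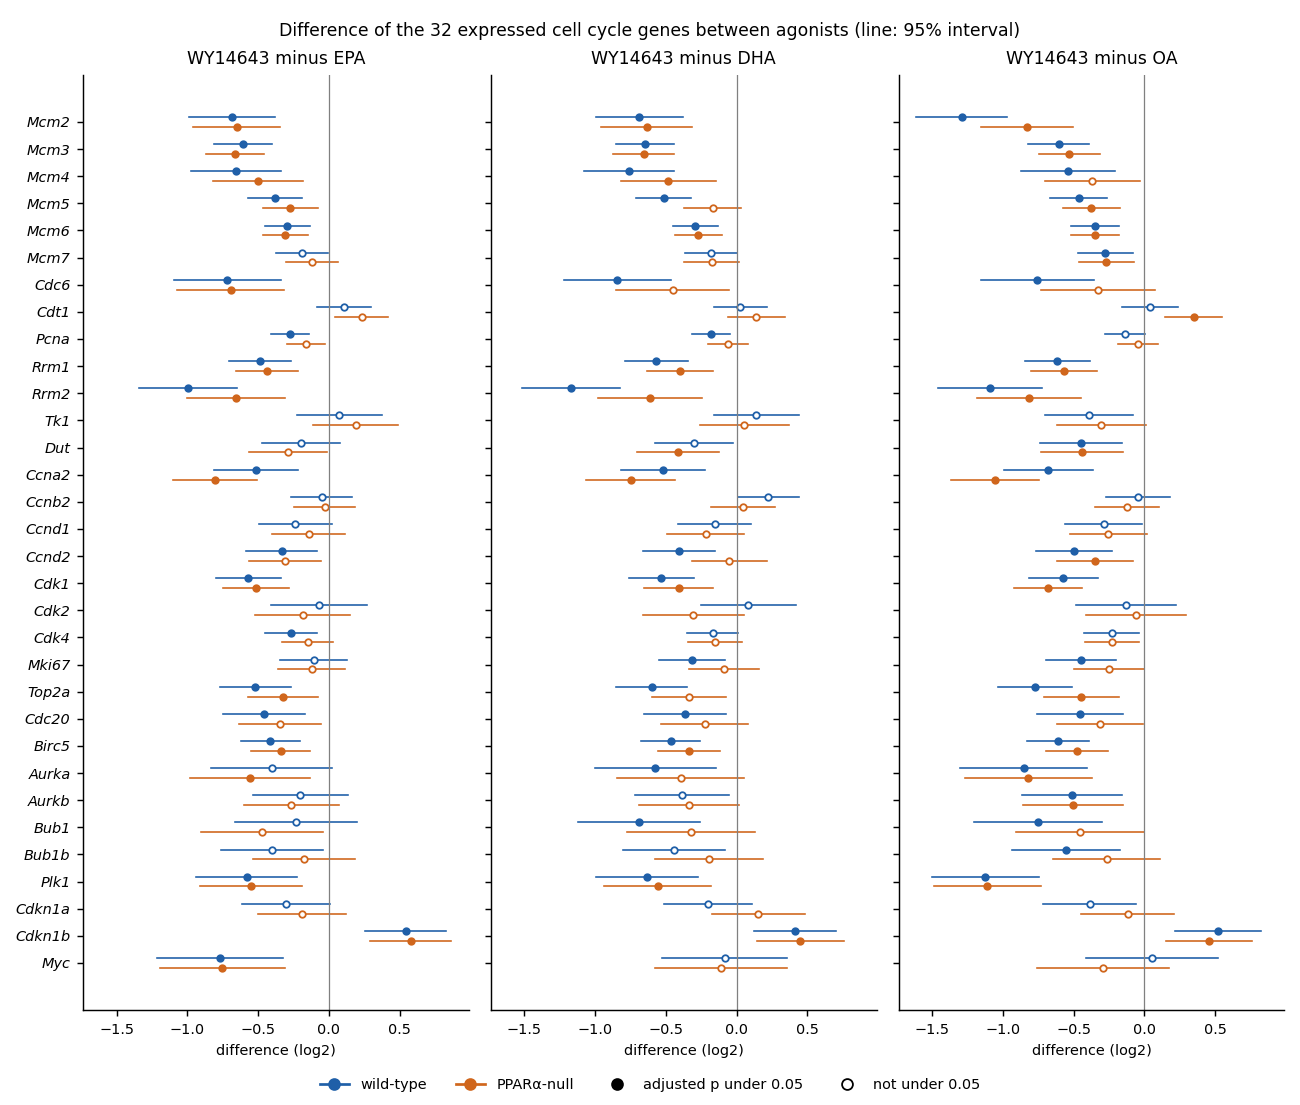
Difference of each of the 32 expressed cell cycle genes between WY14643 and EPA, DHA or OA (log2, on the probeset of highest mean) with its 95% interval, wild-type in blue and PPARα-null in orange; filled points have a limma adjusted p under 0.05. Against OA, Mcm2, Plk1 and Rrm2 lie farthest to the left in wild-type mice and Plk1 and Ccna2 in PPARα-null mice, and Cdkn1b lies to the right of 0 in all 6.

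All 9 genes of mitosis were expressed. Of these 4, 7 and 9 were lower after WY14643 than after EPA, DHA and OA in wild-type mice, and 5, 3 and 6 in PPARα-null mice. Plk1, a kinase that acts on centrosomes and spindle, read 5.08, 5.23, 4.72 and 5.76 after WY14643 and 6.09, 6.34, 6.34 and 6.52 after OA in wild-type mice (a fall of 1.12, SE 0.19, limma adjusted p = 4.96e-05). Plk1 in PPARα-null mice read 5.27, 5.13, 4.45 and 5.03 against 5.99, 6.05, 5.95 and 6.33 (a fall of 1.11, SE 0.19, limma adjusted p = 0.000125). The groups were apart in both genotypes, but the WY14643 levels lay near log2 5, where sizes are less certain.

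Top2a, the topoisomerase that untangles newly copied chromosomes, read 8.66, 8.79, 8.68 and 8.89 after WY14643 and 9.42, 9.52, 9.68 and 9.50 after OA in wild-type mice (a fall of 0.77, SE 0.13, limma adjusted p = 5.7e-05). The PPARα-null mice had 9.09, 8.72, 8.92 and 9.15 against 9.30, 9.56, 9.30 and 9.50. The fall there was 0.44 (SE 0.13, limma adjusted p = 0.0119) and was no longer called without WY14643 replicate 2 (0.36, adjusted p = 0.0536). A second Top2a probeset was called in neither (-0.34 and -0.26, adjusted p = 0.142 and 0.268). Mki67, which encodes the Ki-67 antigen used to count cycling cells, read 8.75, 8.85, 8.99 and 9.04 after WY14643 in wild-type mice. It read 9.27, 9.15, 9.48 and 9.51 after OA (a fall of 0.45, SE 0.12, limma adjusted p = 0.00632) and 8.97, 9.28, 8.75, 9.02 and 9.06 after EPA, where the difference was -0.11 (95% interval -0.34 to 0.13, adjusted p = 0.488).

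In PPARα-null mice Mki67 was not called. It read 8.97, 8.79, 9.10 and 9.23 after WY14643 and 9.20, 9.52, 8.97 and 9.40 after OA, and the groups overlapped (-0.25, 95% interval -0.50 to -0.00, adjusted p = 0.126). Birc5, or survivin, a partner of Aurora B, fell by 0.61 and 0.47 against OA in wild-type and PPARα-null mice (limma adjusted p = 0.000114 and 0.00189), and Aurka by 0.85 and 0.82 (0.00429 and 0.00699). The spindle checkpoint kinase Bub1 fell by 0.75 in wild-type mice (adjusted p = 0.0112) and differed by -0.45 in PPARα-null mice (adjusted p = 0.133). The calls of Aurkb, Bub1b and Cdc20 against OA in wild-type mice (-0.51, -0.55 and -0.46, adjusted p = 0.0265, 0.0262 and 0.0214) were each lost when WY14643 replicate 1 was left out (0.0821, 0.145 and 0.0869) and without 3, 2 and 2 other single arrays, on their main probesets. Cdc20, an activator of the anaphase-promoting complex, had a second probeset that was lower in all 6 comparisons, by 0.50 against OA in wild-type (adjusted p = 0.00969) and by 0.48 in PPARα-null mice (adjusted p = 0.0145), where the main probeset was not called (-0.31, adjusted p = 0.122).

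Cdkn1b, which encodes the Cdk inhibitor p27, was higher after WY14643 than after EPA, DHA and OA in wild-type mice, by 0.54, 0.41 and 0.52 (SE 0.14 to 0.15, limma adjusted p = 0.00317, 0.0236 and 0.00944). The gene was singled out after its values were seen. It read 9.28, 9.41, 9.39 and 9.41 after WY14643 and 9.05, 8.90, 8.86 and 8.61 after OA, and no EPA or DHA value of wild-type mice exceeded 9.11. In PPARα-null mice it was higher by 0.58, 0.45 and 0.45 (adjusted p = 0.00276, 0.0388 and 0.0245). The DHA call in wild-type mice was lost without DHA replicate 2 or WY14643 replicate 2 (adjusted p = 0.0671 and 0.0543). In PPARα-null mice the OA call was lost without OA replicate 1, 2 or 3 or WY14643 replicate 1 (0.0526, 0.0514, 0.0832 and 0.0933), and the DHA call without any of 7 of the 8 arrays (adjusted p up to 0.129). Cdkn1a, which encodes p21, was not called on its main probeset, with differences from -0.39 to 0.15. Its other probeset was lower after WY14643 than after EPA, by 0.77 in wild-type and 0.78 in PPARα-null mice (limma adjusted p = 0.0263 and 0.0297), and was not called against DHA or OA.

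Myc, a growth regulator of crypt cells, followed another pattern, with its highest group mean after EPA in both genotypes. In wild-type mice it read 7.06, 6.72, 7.32, 6.71 and 7.03 after EPA, 5.99, 6.44, 5.83 and 6.31 after OA and 6.06, 6.53, 5.83 and 6.38 after WY14643. The EPA values were above all OA and all WY14643 values. Myc was lower after WY14643 than after EPA by 0.77 in wild-type and 0.75 in PPARα-null mice (SE 0.22, limma adjusted p = 0.00578 and 0.00902). Its differences between WY14643 and OA were 0.06 and -0.29 (adjusted p = 0.89 and 0.363).

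Among other genes of the pathway more were lower than higher after WY14643. Of 35 other expressed replication genes, 20, 19 and 18 were lower after WY14643 than after EPA, DHA and OA in wild-type mice and 1, 1 and 0 were higher. In PPARα-null mice 10, 7 and 11 were lower and 2, 0 and 0 higher. The lower genes were 57.1, 54.3 and 51.4% of the list in wild-type and 28.6, 20 and 31.4% in PPARα-null mice, against 23.1, 20.8 and 17.7% and 17, 9.04 and 13.3% of all genes. Against OA, Hells, a chromatin remodeller, fell by 0.70 in wild-type and 0.55 in PPARα-null mice (limma adjusted p = 7.48e-06 and 0.000227), and Uhrf1, which guides maintenance methylation, fell by 1.03 and 0.81 (5.91e-05 and 0.00111). Tipin, a fork protection factor, fell by 0.93 and 0.61 (5.02e-05 and 0.00446). The median difference of the list against OA was -0.31 in wild-type and -0.20 in PPARα-null mice.

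Of 42 other mitosis genes, 17, 17 and 24 were lower and 2, 1 and 1 higher in wild-type mice, and 10, 3 and 18 were lower and 1, 0 and 0 higher in PPARα-null mice. That is 40.5, 40.5 and 57.1% lower in wild-type and 23.8, 7.14 and 42.9% in PPARα-null mice, where the share against DHA was below the 9.04% of all genes. The tubulin gene Tubb5 fell by 0.59 and 0.62 against OA (limma adjusted p = 0.000163 and 0.000198), and Incenp, the scaffold of Aurora B, by 0.62 and 0.58 (0.000789 and 0.00191). Cenpe, a kinesin of the kinetochore, was the member of this list that was higher than after OA in wild-type mice, by 1.75 (SE 0.33, adjusted p = 0.000249), with a difference of -0.80 in PPARα-null mice (adjusted p = 0.0754). It was measured on a single expressed probeset, and which transcript that probeset detects was not tested. Of 19 E2F, DREAM and G1 regulators, 5 were lower and 4 higher than after OA in wild-type mice and 4 lower and 5 higher in PPARα-null mice. The E2F partner Tfdp1 fell by 0.64 and 0.60 (limma adjusted p = 2.5e-05 and 0.000117) and E2f3 fell by 1.21 in wild-type mice (2.96e-05), while the pocket proteins Rb1 and Rbl2 rose by 0.42 and 0.69 in wild-type (0.000928 and 0.00293) and by 0.45 and 0.93 in PPARα-null mice (0.000756 and 0.000289). Of 15 other brakes and p53 targets, 2 were lower and 4 higher than after OA in either genotype. Over all genes 17.7% were lower and 16.2% higher than after OA in wild-type mice, and 13.3 and 18.3% in PPARα-null mice. The counts of these lists of 19 and 15 genes are small and are not read as a departure from those shares. Gadd45a rose by 0.65 in wild-type mice (adjusted p = 0.000856) and Sesn1 by 1.19 in PPARα-null mice (0.00023).

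Markers of other cells moved with WY14643 in part, and their part in the result was not tested. Of 8 expressed crypt stem cell markers, 3, 2 and 1 were lower after WY14643 than after EPA, DHA and OA in wild-type mice and 1, 1 and 1 in PPARα-null mice, while 1 was higher than after DHA in wild-type and 1 higher than after OA in PPARα-null mice. In wild-type mice the lower markers were 37.5, 25 and 12.5% of the list, against 23.1, 20.8 and 17.7% of all genes. Their summed linear signal lay between 5669 and 5881 in wild-type mice after WY14643 and between 5215 and 6558 after the fatty acids. Of 11 expressed enterocyte markers, 3, 5 and 2 were higher and 1, 1 and 2 lower after WY14643 than after EPA, DHA and OA in wild-type mice, and 3, 2 and 2 were higher and 2, 0 and 3 lower in PPARα-null mice. Of 11 enteroendocrine markers, 0, 1 and 0 were higher and 2, 0 and 1 lower in wild-type mice, and 0, 2 and 3 were higher and 0, 0 and 1 lower in PPARα-null mice. Over all genes 22.2, 19.7 and 16.2% were higher and 23.1, 20.8 and 17.7% lower in wild-type mice. In PPARα-null mice these shares were 20.9, 10.9 and 18.3% higher and 17, 9.04 and 13.3% lower. Among 5 Paneth cell markers at most 1 was called in any of the 6 comparisons. The 10 expressed pancreatic acinar genes summed to 15082 to 28378 in PPARα-null mice after WY14643 and to 77678 to 145590 after OA, and 9 of them were lower there. In the other 5 comparisons none of them passed the test, with ranges of 21759 to 56251 in wild-type mice after WY14643 and 11661 to 143340 after the fatty acids. Of 8 smooth muscle genes, 2 were lower than after EPA in wild-type mice and at most 1 in any other of the comparisons, and the sum in wild-type mice ran from 5366 to 7876 after WY14643 and from 6105 to 8302 after the fatty acids. The 3 expressed T cell genes, of which at most 1 was called in any of the comparisons, summed to 945 to 1305 in wild-type mice after WY14643 and 276 to 919 after the fatty acids, so that these ranges did not overlap. In PPARα-null mice the ranges were 635 to 951 and 170 to 821, and they overlapped.

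A measure of RNA quality moved too, while others did not move the same way. The difference between the 3' and 5' control probesets of β-actin had medians of 0.83 and 1.04 on the log2 scale in wild-type and PPARα-null mice after WY14643 and of 0.59 to 0.73 in the 6 fatty acid groups, and the ranges overlapped (0.71 to 1.25 against 0.47 to 1.09). For Gapdh the ranges were -0.25 to 0.00 and -0.22 to 0.04. For the transferrin receptor the medians were 1.90 and 1.96 in wild-type and PPARα-null mice after WY14643. In the fatty acid groups they were 1.96 to 2.14. The part of RNA quality in the result was not tested.

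The genotype comparisons asked whether wild-type and PPARα-null mice differed under the same agonist. No cell cycle gene passed the test (limma, adjusted p under 0.05) under any of the 4 agonists. Of all expressed genes 7.56% passed after WY14643, 0% after EPA, 8.2% after DHA and 0.498% after OA. The shares after EPA and OA rested on the 3 arrays that went against their label: without them 179 and 158 of 8652 genes passed, in place of 0 and 43 of 8626, and 0 and 0 cell cycle genes. At an unadjusted p under 0.05 there were 2, 1, 8 and 5 cell cycle genes. Among all 8626 expressed genes 1955 reached that level after WY14643 and 1044 after EPA. No count of all genes at that level is given here for DHA and OA, so the 8 and 5 are not read as a result. With an unadjusted p under 0.01 there were 1, 0, 1 and 1 cell cycle genes, against 1024, 271, 1149 and 457 of all genes. The median differences (wild-type minus PPARα-null) were -0.02, 0.06, 0.13 and 0.09. Mcm2 after OA differed by 0.57 on its main probeset (95% interval 0.25 to 0.89, limma adjusted p = 0.101), and its other probeset had an adjusted p of 0.0626. Aurka after DHA differed by 0.60 (0.18 to 1.03, adjusted p = 0.0824) and Ccna2 after WY14643 by 0.42 (0.11 to 0.74, adjusted p = 0.102). For Mcm2 all 4 wild-type OA values exceeded all 4 PPARα-null values. The count rose to 3 after DHA without PPARα-null replicate 2 and to 1 after WY14643 without PPARα-null replicate 1 or wild-type replicate 3.

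The difference between WY14643 and a fatty acid was also compared between the genotypes. None of the 32 genes had an interaction that passed the test (limma, adjusted p under 0.05). Of all genes, 1.3% passed for WY14643 against EPA, 0.58% against DHA and 1.3% against OA, and 0% for EPA against DHA, EPA against OA and DHA against OA. At an unadjusted p under 0.05 there were 0, 2, 3, 1, 1 and 1 cell cycle genes, a level at which no count of all genes is given here. Under 0.01 there were 0, 0, 0, 0, 1 and 0, against 313, 299, 384, 166, 174 and 158 of all 8626 genes. The larger fall of Mcm2 against OA in wild-type mice amounted to -0.46 (95% interval -0.92 to -0.00, limma adjusted p = 0.542). For Rrm2 against DHA it was -0.56 (-1.06 to -0.06, adjusted p = 0.52). For Ccna2 against OA the fall was larger in PPARα-null mice by 0.38 (-0.07 to 0.82, adjusted p = 0.653). The misses do not show that the genotypes respond alike.

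EPA, DHA and OA, fatty acids that differ in chain length and number of double bonds, were given at the same volume and time, and 6 pairs of them were compared among the 12 pairs of agonists. Few cell cycle genes parted them. EPA and DHA differed in none of the 32 genes in either genotype (limma, adjusted p under 0.05), where 0.719% of all genes passed in wild-type and 0.719% in PPARα-null mice. There were 3 and 3 members at an unadjusted p under 0.05, a level at which no count of all genes is given here. Under 0.01 there were 2 and 1, against 561 and 383 of all 8626 genes. The member intervals that reached farthest from 0 were those of Myc, 0.68 in wild-type (95% interval 0.27 to 1.10, limma adjusted p = 0.115) and 0.64 in PPARα-null mice (0.20 to 1.08, adjusted p = 0.244), so differences of that size are not shown to be absent. In PPARα-null mice 0 members passed for EPA against OA and DHA against OA, where 3.15 and 1.31% of all genes passed. There were 5 and 7 members at an unadjusted p under 0.05, again without a count of all genes, so they are not read as a result. Under 0.01 there were 2 and 1, against 731 and 552 of all 8626 genes.

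In wild-type mice 2 members passed for EPA against OA and 2 for DHA against OA, where 8.01 and 4.56% of all genes passed, and 2 of 32 is no larger a share than that background for EPA and close to it for DHA. Mcm2 was lower after EPA and after DHA than after OA, by 0.61 and 0.60 (SE 0.15, limma adjusted p = 0.011 and 0.0164), and its values did not overlap with those after OA. The DHA call was lost without OA replicate 3 or 4 (adjusted p = 0.0555 and 0.0589). Myc was higher after EPA than after OA by 0.82 (SE 0.22, adjusted p = 0.0171), a call lost without EPA replicate 3, OA replicate 1 or OA replicate 3 (0.0572, 0.0628 and 0.0818). Tk1 read 6.86, 7.02, 6.98, 6.96 and 6.89 after DHA and 7.38, 7.56, 7.50 and 7.44 after OA, a fall of 0.53 (SE 0.15, adjusted p = 0.0338) that was lost without any of 8 of the 9 arrays (adjusted p up to 0.0995). In PPARα-null mice Tk1 differed by -0.36 (95% interval -0.67 to -0.05, adjusted p = 0.318).

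Some promoters of the members hold letters that E2F and MuvB are known to read, and most hold neither motif. RefSeq promoters (GRCm38.p6) were at hand for 30 of the 38 genes, 32 promoters in all, and the 250 bases before the start were searched on both strands. An E2F motif, any of TTTCCCGC, TTTGGCGC, TTTCGCGC and TTTGCCGC, occurred in 6 of the 32 (18.8%), against 1.86% of all 32851 promoters. The CHR motif TTTGAA, read by MuvB, occurred in 7 (21.9%, against 16%), and the CCAAT box CCAAT in 22 (68.8%, against 33.8%). TTTGGCGC and TTTCGCGC can overlap on opposite strands, as they do in Mcm5 and Mcm6. A match is a description of the sequence and was not tested for binding. The bases up to the start are shown for 4 of the genes that were lower after WY14643, 5′ to 3′, chosen to show both motifs. Capitals mark E2F motifs in Mcm5 (chr8:75109349-75109508, plus strand) and Mcm6 (chr1:128359706-128359825, minus strand), E2F and CHR motifs in Cdk1 (chr10:69352913-69353052, minus strand) and the CHR motif in Cdc20 (chr4:118437344-118437403, minus strand).
Mcm5: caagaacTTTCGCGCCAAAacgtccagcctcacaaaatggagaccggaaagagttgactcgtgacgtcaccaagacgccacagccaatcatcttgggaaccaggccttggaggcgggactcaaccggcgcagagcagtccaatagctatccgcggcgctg
Mcm6: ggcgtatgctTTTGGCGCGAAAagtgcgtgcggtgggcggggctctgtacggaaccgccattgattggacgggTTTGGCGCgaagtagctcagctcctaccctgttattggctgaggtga
Cdk1: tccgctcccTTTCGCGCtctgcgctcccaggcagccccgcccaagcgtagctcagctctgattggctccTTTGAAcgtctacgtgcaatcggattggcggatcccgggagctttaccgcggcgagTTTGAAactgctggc
Cdc20: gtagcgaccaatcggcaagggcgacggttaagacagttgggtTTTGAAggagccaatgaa

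Of these, Cdk1 holds an E2F motif 131 bases before its start and CHR motifs at 71 and 15 bases, and Cdc20 holds a CHR motif at 18 bases, each position being that of the first base of the match. Rrm2 and Plk1, which were among the genes with the largest falls against OA, hold neither motif in these letters within the window. Mcm3 holds neither, nor does Cdkn1b, which rose in all 6 comparisons. Mcm2 holds a CHR motif at 70 bases. With no match nothing is said about the factor.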

How the data were processed

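Affymetrix mouse 430 2.0 arrays were run on RNA of the small intestine, 1 per mouse, from 35 mice. The authors deposited log2 expression values made with GCRMA, which corrects background, normalizes between arrays and summarises each probeset. Its version is not given in the sources used here. The values were used unchanged. A probeset was kept when its mean exceeded log2 5 (the methods' limit of 32) in at least 1 of 8 groups, which left 15384 of 45037. Symbols came from the platform's probe table. One linear model with 8 group means was fitted in limma 3.58.1 (R 4.3.3) with an intensity trend, and p was adjusted by Benjamini-Hochberg. The script was tested on simulated data. Levels are those of the expressed probeset of highest mean. Values per array are given for at most 4 called members per comparison with the smallest adjusted p, and for Mki67 and Pcna. The design does not state that replicate numbers pair the mice. For EPA against DHA in PPARα-null mice all 4 same-numbered pairs deviated together (correlations 0.12 to 0.40). All 4 pairs of wild-type and PPARα-null mice after WY14643 did so too (0.09 to 0.55). There the pairing is a hint from the data, and in the other comparisons some pairs had negative correlations. Mice of a group are separate animals. The members and the lists were chosen with earlier results of these data known.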

Additional observations from a re-analysis of the deposited data

Results flagged for a closer look

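Of 104 groups of values (13 genes in 8 groups), 6 held an array far from the others of its group, judged by the gap to its nearest neighbour relative to the range of the group. Chance alone flags about 1 in 20 groups. Rrm1 read 7.69 in wild-type mice after WY14643 in replicate 4, the array whose cell cycle genes were least shifted. Mcm5 read 9.43 in wild-type OA replicate 3, and Mcm3 read 8.28 in PPARα-null EPA replicate 5, an array that went against its genotype label. Tk1 read 7.03 in PPARα-null DHA replicate 4. Myc read 5.48 in PPARα-null OA replicate 4 and 7.04 in PPARα-null EPA replicate 1.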

How the results depend on the processing

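Counts of called cell cycle genes were recomputed under 10 alternatives and with each array left out. Those for WY14643 against EPA and OA in both genotypes and against DHA in wild-type mice stayed within 1.5 times, at 16 to 26. The count of 16 for PPARα-null mice against DHA fell to 8 with no filter on the level and to 3 with only the groups compared. With an unadjusted p under 0.01 the genotype counts became 1 after DHA, 1 after OA and 1 after WY14643, and those of fatty acid pairs 2 (EPA against DHA, wild-type), 5 (EPA against OA, wild-type), 1 (EPA against DHA, PPARα-null), 2 (EPA against OA, PPARα-null) and 1 (DHA against OA, PPARα-null), and 1 interaction passed (EPA against OA). Without the 3 arrays against their label the genotype count after DHA was 1. With the replicate number as a block, EPA against OA gave 4 in wild-type and 1 in PPARα-null mice, and no other count of calls moved by over 1.5 times. Correlations between arrays of the same number ran from -0.58 to 0.55 over all comparisons. All 4 pairs deviated together for EPA against DHA in PPARα-null mice (0.12 to 0.40). So did all 4 pairs of wild-type and PPARα-null mice after WY14643 (0.09 to 0.55). In both comparisons the blocked count was 0, as it was without the block. In the other comparisons some pairs had negative correlations. Leaving out 1 array gave 6 to 18 for PPARα-null mice against DHA, 0 to 2 for DHA against OA and 1 to 3 for EPA against OA in wild-type mice, 0 to 1 for EPA against OA in PPARα-null mice, and 0 to 3 and 0 to 1 for the genotype after DHA and WY14643. Of 2034 alternative values of 112 called differences, 1806 stayed called, 228 were no longer called and 0 changed sign. Leaving out probesets that can match several transcripts was chosen after seeing the data. Signal near log2 5, as for Cdc6 and Plk1, limits how well a size is known.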

Other observations

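The mitosis gene Cenpe, outside the members, went against its list. It read 7.72, 7.87, 8.14 and 7.01 in wild-type mice after WY14643 and 6.00, 5.64, 6.49 and 5.61 after OA. In PPARα-null mice the values were 4.81, 4.37, 4.93 and 5.31 after WY14643 and 5.73, 5.73, 5.33 and 5.82 after OA. Its only expressed probeset differed between wild-type and PPARα-null mice by 2.83 after WY14643 (SE 0.33, limma adjusted p = 3.64e-07) and by 1.23 after DHA (adjusted p = 0.0175), the wild-type mice being higher. Which transcript this probeset detects was not tested, so the values may not be those of the Cenpe messenger RNA, and those of the neighbouring gene are set beside them. The nearest protein-coding neighbour of Cenpe in the RefSeq table is Bdh2, whose expressed probeset differed between the genotypes by -0.29 after WY14643 (adjusted p = 0.751). Bdh2 was higher after WY14643 than after EPA in wild-type mice by 0.99 (adjusted p = 0.0286) and differed from OA by 0.03 (adjusted p = 0.969).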
